A study of Homo sapiens with 6 samples.

Results

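The subunits of respiratory complex I were taken as the protein-coding genes whose GENCODE 29 symbol begins with MT-ND or is NDUF followed by A, B, C, S or V and a number. The rule found 46 of the 33367 genes matched in the files. Of these, 7 were mitochondrially encoded (MT-ND1 to MT-ND6 and MT-ND4L) and 39 were nuclear. Among the nuclear members, 36 are complex I subunits and 3 match by symbol alone, namely NDUFA4 and NDUFA4L2, which are known from complex IV, and the read-through gene NDUFC2-KCTD14. The carrier protein NDUFAB1, a subunit whose symbol lies outside the rule, was listed at 307 to 349 TPM, a level scaled for transcript length and for library total. Of the 46 members, 45 passed the filter on low counts. NDUFC2-KCTD14 did not, with 0 TPM in 3 of the 6 libraries and at most 0.71 TPM.

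Complex I passes electrons from NADH to ubiquinone and pumps protons across the inner mitochondrial membrane. Its core is conserved from bacteria. The MT-ND proteins form the proton-pumping membrane arm, and the nuclear core subunits carry the flavin and the iron-sulfur clusters of the peripheral arm, with NADH oxidised in the N module and ubiquinone reduced in the Q module. The supernumerary subunits surround this core. The MT-ND mRNAs are cut from long transcripts of the circular mitochondrial genome, while each NDUF mRNA comes from its own nuclear gene, so that assembly draws on both genomes.

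The libraries came from K562, an erythroleukaemia line that has been used as a model of early erythroid cells. Clones c1 and c2 carry an inducible shRNA against CDAN1, the gene of codanin-1, and NT carries a non-targeting shRNA. The induced libraries are c1, c2 and NT with 1 µg/ml doxycycline to day 4, and the uninduced libraries are the same 3 without doxycycline. All 6 cultures were under 2 µg/ml puromycin, and each clone and doxycycline state has 1 library. Each hairpin state of a clone is thus a single culture, and p-values measure the spread between these libraries only. In bulk RNA, fewer cells with a transcript and less of it per cell cannot be told apart. In the NT pair, doxycycline itself and the expression of a hairpin cannot be told apart either.

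The libraries held 28318555 to 32352246 estimated reads. CDAN1 stood at 17.0 and 29.8 CPM (reads scaled for library size and composition, not for length) in induced c1 and c2, against 37.0 and 55.4 CPM in the same clones uninduced and 70.2 and 62.5 CPM in induced and uninduced NT. It was below every control in both knockdown libraries. The erythroid markers were present, with GATA1 at 273 to 331 TPM and HBG2 at 12605 to 16132 TPM. Of the markers of other cell types given here, MS4A1 was at 0 in every library, and CD3E, CD14 and COL1A1 reached at most 0.71, 1.17 and 4.25 TPM. KRT8 at 287 to 469 TPM, EPCAM at 19.0 to 44.6 TPM and CD3D at 21.5 to 68.5 TPM were present in all 6, lowest in the c2 libraries; their part in the results was not tested.

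The summed level of the mitochondrially encoded subunits was lower in the induced library of c1 and NT, and that of the nuclear members stayed within a few percent in each clone. The summed level of the 7 MT-ND genes was 51403 TPM in induced c1 against 63348 TPM in uninduced c1. It was 51813 TPM in induced c2 against 53052 TPM in uninduced c2, and 45268 TPM in induced NT against 59164 TPM in uninduced NT. The induced sum was thus 81.1% of the uninduced sum in c1, 97.7% in c2 and 76.5% in NT. For the 39 nuclear members the sums were 6207 TPM in induced and 5970 TPM in uninduced c1, 6302 and 6578 TPM in induced and uninduced c2, and 6509 and 6340 TPM in induced and uninduced NT. The induced nuclear sum was 104.0% of the uninduced sum in c1, 95.8% in c2 and 102.7% in NT. The 3 induced libraries were below all 3 uninduced ones for the MT-ND sum, by the least in c2, whereas the 2 states overlapped for the nuclear sum. The order of the MT-ND sums rests on MT-ND4L. Without it, an alternative added after the data had been seen, the sums were 26529 TPM in induced and 30952 TPM in uninduced c1, 25797 and 25128 TPM in induced and uninduced c2, and 26270 and 31207 TPM in induced and uninduced NT. The states then overlapped, with c2 higher when induced.

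The ratio of the MT-ND sum to the nuclear sum gives the balance of the 2 genomes in each library. It was 8.28 in induced and 10.6 in uninduced c1, 8.22 in induced and 8.07 in uninduced c2, and 6.95 in induced and 9.33 in uninduced NT. On the log2 scale the induced minus uninduced difference was -0.36 in c1, 0.03 in c2 and -0.42 in NT, with a mean of -0.25 ± 0.24 (SD, n = 3 clones). The lowest and the highest ratio were those of induced NT and uninduced c1, and both c2 libraries lay between. No p-value is given for these sums, since the members were chosen with earlier results of these data known. The MT-ND genes took 1.57% (95% Wilson interval 1.56% to 1.57%) of the reads in induced c1, against 1.94% (1.94% to 1.95%) in uninduced c1. Their share was 1.52% (1.52% to 1.52%) in induced c2 against 1.49% (1.48% to 1.49%) in uninduced c2, and 1.41% (1.41% to 1.42%) in induced NT against 1.85% (1.84% to 1.85%) in uninduced NT. These intervals cover counting error only.

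**Figure D1:**
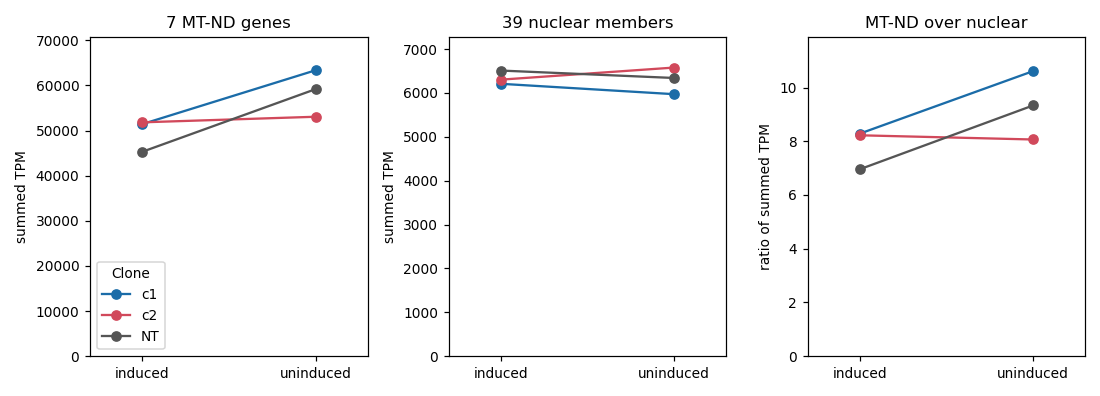
Summed TPM of the 7 MT-ND genes (left), of the 39 nuclear members (middle) and their ratio (right) in the induced and the uninduced library of each clone; lines join the 2 libraries of a clone. The MT-ND sum and the ratio are lower in the induced library of c1 and NT (ratios 8.28 against 10.6 and 6.95 against 9.33), while the c2 ratios are 8.22 and 8.07.

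In c1 and NT every MT-ND mRNA was lower in the induced library, and in c2 the 7 were split. All 7 were lower in c1, by 0.12 to 0.46 on the log2 CPM scale with a median of -0.29, and all 7 were lower in NT, by 0.15 to 0.61 with a median of -0.49. In c2, 3 were higher and 4 lower, between -0.07 and 0.14, with a median of -0.01. The medians over the 14075 genes tested were -0.01 (c1), -0.001 (c2) and -0.002 (NT). The 6 other mitochondrially encoded mRNAs (cytochrome c oxidase, cytochrome b and ATP synthase subunits) showed a median of -0.15 in c1 with 4 of 6 lower, of 0.20 in c2 with 1 of 6 lower, and of -0.31 in NT with 6 of 6 lower. All mitochondrially encoded genes together took 4.78% of the reads in induced and 5.73% in uninduced c1, 4.58% and 4.34% in induced and uninduced c2, and 4.03% and 5.22% in induced and uninduced NT.

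The mRNAs that differed most between the states were those of MT-ND4L and MT-ND4, membrane-arm subunits whose genes adjoin and are read from a shared mRNA. MT-ND4L had 24874, 26016 and 18999 TPM in induced c1, c2 and NT, against 32397, 27924 and 27958 TPM in uninduced c1, c2 and NT. MT-ND4, a proton-pumping subunit of the distal membrane arm, had 6418, 6233 and 5637 TPM in induced c1, c2 and NT, against 8680, 6480 and 7926 TPM in uninduced c1, c2 and NT. For both genes the 3 induced libraries were below all uninduced ones in TPM, and the c2 pair was the closest. In CPM this held for MT-ND4L but not for MT-ND4, where induced c1 at 6685 CPM lay above uninduced c2 at 6423 CPM. The shared mRNA joins the 2 reading frames with an overlap of 7 bases, shown here in capitals because reads across it cannot be given to either gene by sequence alone (mitochondrial genome, plus strand, GENCODE 29 on GRCh38).
End of MT-ND4L, chrM:10722-10766: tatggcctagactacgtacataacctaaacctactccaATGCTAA
Start of MT-ND4, chrM:10760-10804: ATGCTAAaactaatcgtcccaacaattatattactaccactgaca
Although they share an mRNA, the level of MT-ND4L per length was 3.88, 4.17 and 3.37 times that of MT-ND4 in induced c1, c2 and NT, and 3.73, 4.31 and 3.53 times in uninduced c1, c2 and NT. MT-ND4L is 297 bases long, and its effective length in the files, by which Salmon divides, was 58.4 to 62.2 bases against 1119 to 1128 bases for MT-ND4. MT-ND4L made up 42.0% to 52.6% of the MT-ND sum. Without it the induced minus uninduced difference of the log2 ratio was -0.28 in c1, 0.10 in c2 and -0.29 in NT, an alternative added after the data had been seen.

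MT-ND6 is the only member on the other strand of the mitochondrial genome. The end of its reading frame adjoins that of MT-ND5 with no base between them, and both ends are shown because the library strand is not given in the sources used here.
End of MT-ND5, plus strand, chrM:14104-14148: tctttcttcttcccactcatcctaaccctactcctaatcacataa
End of MT-ND6, minus strand, chrM:14149-14193: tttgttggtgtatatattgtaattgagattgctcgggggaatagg
G makes up 35.6% of MT-ND6 against 9.5% to 12.1% of the other 6. MT-ND6 had 667, 699 and 659 TPM in induced c1, c2 and NT, against 837, 716 and 892 TPM in uninduced c1, c2 and NT. Every induced library lay below every uninduced one, in TPM and in CPM. This order rests on the c2 pair, at 168.4 CPM induced against 170.0 CPM uninduced. The log2 difference of that pair was -0.01, with a counting interval of -0.07 to 0.04, so that its order is within counting error. Such a separation of the 2 states in CPM was found in 2 of the 7 MT-ND genes (28.6%), against 6.33% of all genes. MT-ND1, which borders the ubiquinone pocket, had 2818, 2665 and 2206 TPM in induced c1, c2 and NT, against 3419, 2773 and 3029 TPM in uninduced c1, c2 and NT. It was lower within each pair, but the 2 states overlapped.

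MT-ND2, MT-ND5 and MT-ND3 separated c2 from the other clones in direction. MT-ND2, a pump subunit of the membrane arm, had 6673, 6576 and 6471 TPM in induced c1, c2 and NT, against 7651, 6031 and 7238 TPM in uninduced c1, c2 and NT. MT-ND5, the pump at the far end of the arm, had 734, 856 and 706 TPM in induced c1, c2 and NT, against 887, 791 and 882 TPM in uninduced c1, c2 and NT. Both were lower with doxycycline in c1 and NT and higher in c2. MT-ND3, whose loop lies near the ubiquinone pocket, had 9219, 8767 and 10590 TPM in induced c1, c2 and NT, against 9478, 8337 and 11240 TPM in uninduced c1, c2 and NT. Both NT libraries were above all 4 CDAN1 shRNA libraries for MT-ND3. In CPM, 61.2% of all genes did not overlap between c1 and NT, and 62.6% did not between c2 and NT. The shares of the 7 MT-ND genes were 14.3% and 28.6%. In mean level over the 6 libraries the order was MT-ND4L, MT-ND3, MT-ND4, MT-ND2, MT-ND1, MT-ND5 and MT-ND6, with 26361, 9605, 6896, 6773, 2819, 809 and 745 TPM. The ranges of MT-ND3, MT-ND4 and MT-ND2 overlapped with their neighbours in this order, as did those of MT-ND5 and MT-ND6.

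**Figure D2:**
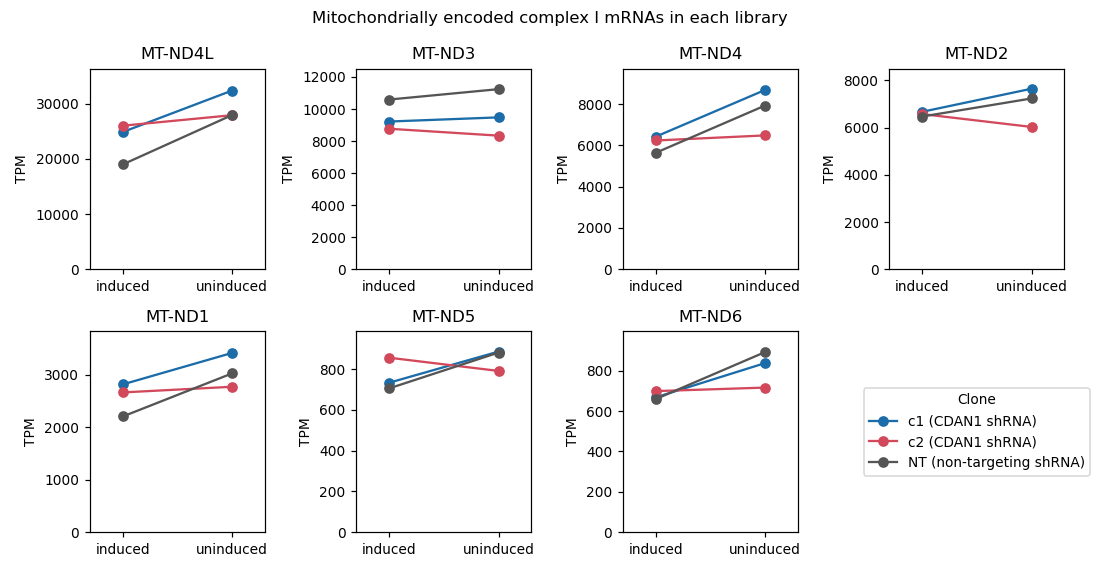
TPM of each MT-ND gene in the induced and the uninduced library of c1, c2 and NT; each axis starts at 0 and lines join the libraries of a clone. The c1 and NT lines lie lower in the induced state in all 7 panels, whereas the c2 line is nearly level, with 856 TPM induced against 791 TPM uninduced for MT-ND5.

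No member passed the test in the 4 comparisons that involve doxycycline. With edgeR's quasi-likelihood test, adjusted over all 14075 genes, 0 of 45 members and 0% of all genes were called at an adjusted p under 0.05 for the 2 knockdown libraries against all 4 controls, for induced against uninduced CDAN1 shRNA clones, for the CDAN1 shRNA response against the NT response, and for induced against uninduced over all 3 clones. The members with an unadjusted p under 0.05 numbered 1, 0, 0 and 3 in that order with edgeR and 2, 0, 0 and 4 with DESeq2, which also called no member. With the clone as a block, which the design allows because both states of a clone come from the same line, edgeR again called 0 members. It called 0.0426% of all genes for the knockdown, 1.00% for induced against uninduced CDAN1 shRNA clones, 0.135% for the difference of responses and 0.128% over all 3 clones. The members with an unadjusted p under 0.05 then numbered 3, 7, 2 and 6. In that fit CDAN1 was called in the knockdown, with a log2 fold change of -1.01 ± 0.10 (SE) and an adjusted p of 0.0275 by edgeR. Without the block the targeted gene itself was not called (-1.27 ± 0.32, edgeR unadjusted p = 0.00622). The absence of calls in the unblocked fits is therefore no measure of absent change.

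Over all 3 clones the paired edgeR fit gave MT-ND4L a log2 fold change of -0.38 ± 0.09 (SE; adjusted p = 0.181) and MT-ND4 one of -0.34 ± 0.09 (adjusted p = 0.202). The averages behind the first were 1256 ± 195 CPM in the induced and 1631 ± 209 CPM in the uninduced libraries (SD, n = 3 each). These differences rest on c1 and NT. Without the induced c2 library, which leaves 1 library in that clone so that the value comes from the c1 and NT pairs, the same fit called 4 members, all MT-ND and all lower. These were MT-ND4L (-0.53 ± 0.07, adjusted p = 0.00638), MT-ND4 (-0.48 ± 0.07, adjusted p = 0.00927), MT-ND6 (-0.42 ± 0.07, adjusted p = 0.0204) and MT-ND1 (-0.39 ± 0.07, adjusted p = 0.0397), against 0.572% of all genes called. Without the uninduced c2 library the same 4 were called, against 0.565% of all genes. Without the induced or the uninduced NT library, no member was called, and MT-ND4L had -0.26 ± 0.08 and -0.27 ± 0.09 (edgeR adjusted p = 0.206 and 0.246) and MT-ND1 -0.16 ± 0.07 in both (adjusted p = 0.368 and 0.375). Without either c1 library, no member was called, and MT-ND4L had -0.34 ± 0.11 in both (adjusted p = 0.439 and 0.434). Which library to leave out was chosen after the values had been seen, so that these calls describe the c1 and NT pairs. In each MT-ND gene the induced minus uninduced change of c1 lay between that of NT and that of c2. The median change of c1, -0.29, was nearer to the -0.49 of NT than to the -0.01 of c2. For these genes the response of the CDAN1 shRNA clones against that of NT thus rests more on c2 than on c1. In that comparison all 7 MT-ND genes had positive log2 differences with a median of 0.29, against -0.001 over all genes. The one with the smallest unadjusted p in the paired fit, MT-ND1, had 0.34 ± 0.12 (edgeR, adjusted p = 0.818). The largest and smallest differences of all members in the unpaired fit were those of NDUFA4L2 (0.60 ± 0.66), NDUFA13 (0.34 ± 0.48), NDUFA6 (-0.19 ± 0.77) and NDUFA10 (-0.18 ± 0.16). For induced against uninduced CDAN1 shRNA clones, NDUFA13 (0.46 ± 0.28) and NDUFA4L2 (0.27 ± 0.38) were at the upper end and MT-ND4L (-0.28 ± 0.14) and MT-ND4 (-0.26 ± 0.18) at the lower end.

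**Figure D3:**
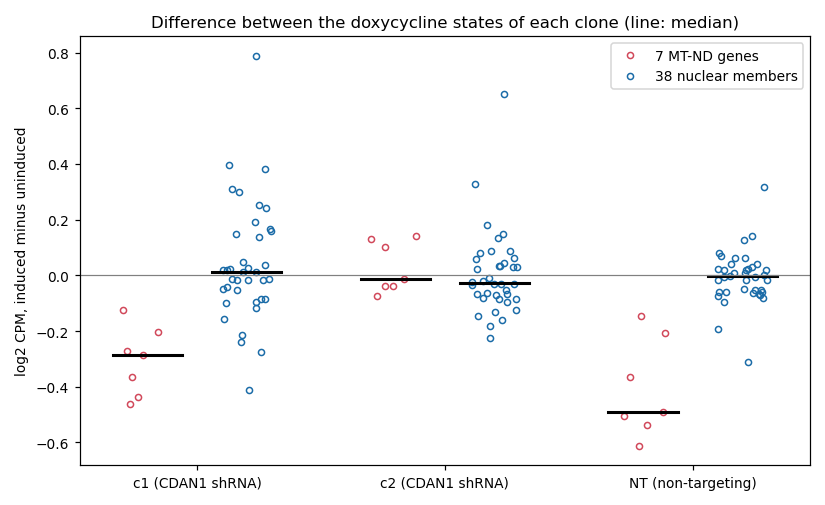
log2 CPM of the induced minus the uninduced library of each clone for the 7 MT-ND genes (red) and the 38 nuclear members tested (blue), with lines at the medians. The MT-ND medians are -0.29 in c1, -0.01 in c2 and -0.49 in NT, while the nuclear medians are 0.01, -0.03 and -0.003.

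The nuclear members spread on both sides of 0 in each pair. Of the 38 tested, 20 were higher with doxycycline in c1, 16 in c2 and 18 in NT, with medians of 0.01, -0.03 and -0.003. In c2 and NT 36 of 38 lay within 0.25 on the log2 scale, and in c1 30 of 38. Across the 3 pairs 7 were lower in all, 5 were higher in all and 26 were mixed. Of all genes tested, 2801 were lower and 2510 higher in all 3 pairs. The 7 nuclear core subunits had a median of -0.05 in c1, of 0.03 in c2 and of 0.01 in NT, whereas the MT-ND core subunits of the same complex were at -0.29, -0.01 and -0.49.

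NDUFA5, a supernumerary subunit of the Q module, had the smallest p of the nuclear members over all 3 clones. It stood at 206, 238 and 202 CPM in induced c1, c2 and NT, against 239, 278 and 231 CPM in uninduced c1, c2 and NT. It was lower in each pair, by 0.19 to 0.22 on the log2 scale, and the 2 states overlapped because uninduced NT lay below induced c2. The paired edgeR fit gave -0.21 ± 0.04 (SE, adjusted p = 0.119). The paired DESeq2 fit, an addition made after the data had been seen, called it (adjusted p = 0.0220) with 1.03% of all genes, and it was the only member called there. NDUFA10, an accessory subunit beside the membrane arm, had the largest negative fold change of the knockdown comparison. It had 99.7 and 101 CPM in induced c1 and c2, against 118 and 107 CPM in the uninduced clones and 124 and 122 CPM in induced and uninduced NT. In CPM both knockdown libraries were below the 4 controls, and the log2 fold change was -0.23 ± 0.08 (edgeR, adjusted p = 1.00). In TPM this did not hold. Induced c1 at 112.2 TPM and induced c2 at 108.9 TPM lay above uninduced c1 at 108.6 TPM. NDUFA1, a small membrane-arm subunit encoded on the X chromosome, had 60.3 and 53.3 CPM in induced c1 and c2, against 48.9 and 50.4 CPM uninduced and 49.2 and 49.7 CPM in induced and uninduced NT. Both knockdown libraries were above the controls, without passing the test (0.20 ± 0.09, edgeR adjusted p = 1.00). Such a separation in CPM was found in 5.26% of the 38 nuclear members, which is below the 9.56% of all genes. The other ends of that comparison were NDUFC1 (0.27 ± 0.18) and MT-ND6 (-0.21 ± 0.15). Over all 3 clones the highest fold changes were those of NDUFA13 (0.33 ± 0.26) and NDUFA6 (0.20 ± 0.31), both at few reads.

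Most nuclear subunits were present at similar levels. Among the 36 nuclear complex I subunits tested, 23 had a mean between 100 and 300 TPM, and the median was 146 TPM. The highest means were those of NDUFS5, a membrane-arm subunit facing the intermembrane space, NDUFB9 of the distal arm and NDUFC2 of the proximal arm, with 573 ± 56.2, 472 ± 42.3 and 363 ± 42.7 TPM (SD, n = 6 libraries). In the peripheral arm the medians of mean levels were 114 TPM for the N module (8 genes), 168 TPM for the Q module (5 genes) and 80.6 TPM for the genes that join them (3 genes), beside 145 TPM for the nuclear genes of the proximal (9 genes) and 195 TPM for those of the distal membrane arm (11 genes). The MT-ND median was 6773 TPM. NDUFA6, which joins the N and Q modules, and NDUFA13, a proximal-arm subunit also known as GRIM-19, were the lowest of the subunits with 3.21 ± 0.95 and 11.5 ± 2.56 TPM. Whether reads of these 2 genes stand among the 16229 transcripts not matched to GENCODE 29, which held 6.23% to 6.50% of the reads, was not tested. NDUFA4L2 of complex IV was at 1.46 to 3.01 TPM.

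The levels varied little between libraries. The highest library was 1.26 times the lowest in the median subunit, against 1.51 times over all genes tested. It was 1.38 times over the 10027 genes between the lowest and the highest subunit mean (3.21 to 573 TPM). Neither set is matched in level, since the median level was 12.5 TPM over all genes tested and 146 TPM over the subunits. The part of higher read counts in the smaller ratio was not tested. NDUFB4 of the distal arm (1.06 times), NDUFA8 of the proximal arm (1.09 times) and NDUFV3 of the N module (1.11 times) were the most even. The largest ratios were those of NDUFA6 (2.70 times), NDUFA4L2 (2.06 times) and NDUFA13 (2.01 times), each with few reads, then NDUFS6 (1.94 times) and NDUFC1 (1.84 times).

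**Figure D4:**
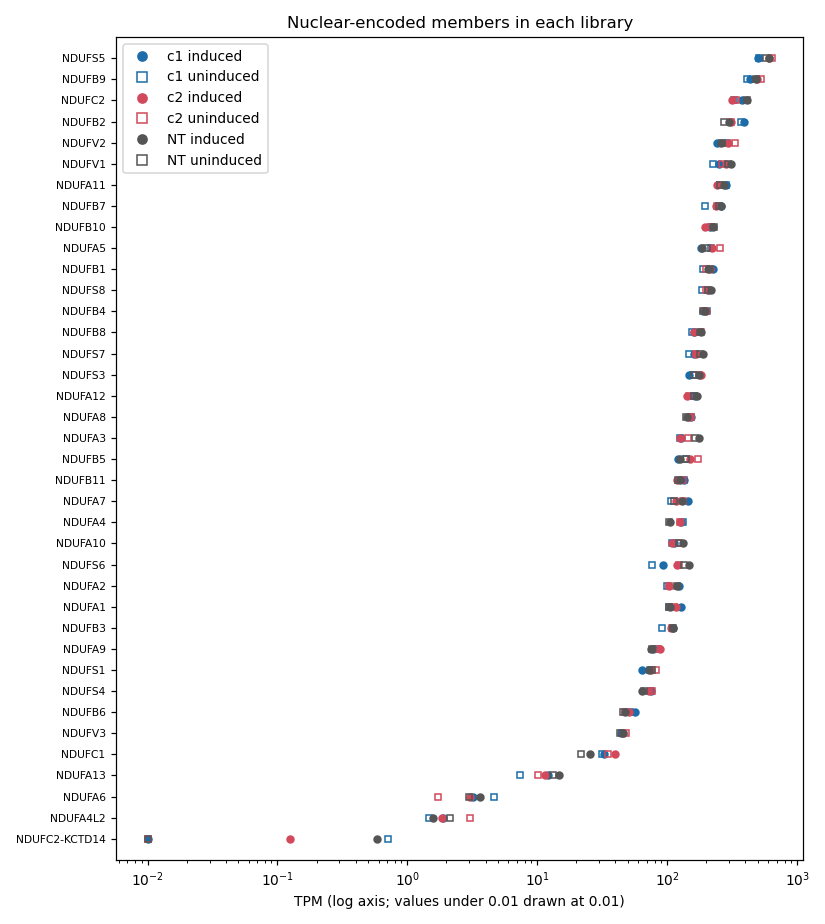
TPM of 38 of the 39 nuclear members in the 6 libraries on a log axis, ordered by mean level; filled circles are induced and open squares uninduced libraries, coloured by clone. Most genes lie between 100 and 300 TPM with their 6 libraries close together, and NDUFA13, NDUFA6, NDUFA4L2 and NDUFC2-KCTD14 stand apart at the low end.

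Many promoters of these genes are known targets of the respiratory factor NRF1, and many housekeeping promoters hold sites of YY1 and of ETS factors such as GABP. RefSeq gave a promoter (250 bases before to 50 after the start, GRCh38.p14) for 31 of the 36 nuclear subunits. The NRF1 word GCATGCGC, on either strand, stood in 6 of 31 (19.4%) against 3.62% of all 27058 promoters. The YY1 word AAGATGGC stood in 7 of 31 (22.6%) against 3.53%, and the ETS word CCGGAAGT in 2 of 31 (6.45%) against 4.93%. At least 1 of the 3 was in 13 of 31 (41.9%), against 11.1% of all promoters. The member counts are per gene, with a word in any promoter of the gene, while the shares of all are per promoter. NDUFA5, NDUFB8, NDUFC1 and NDUFS1 have more than 1 promoter, so the 2 kinds of share are not fully alike. The 8-letter words for NRF1 and YY1 were chosen after the data had been seen. Longer words for both, chosen earlier, each stood in 2 of 31 (6.45%), against 1.504% and 1.053% of all promoters. A match is no measure of binding. The promoters shown are those of NDUFS7, an iron-sulfur core subunit that holds both an NRF1 and a YY1 word, and of NDUFS6, whose fold change between clones was the largest among the members called, with the words in capitals (in NDUFS6 the NRF1 word is on the minus strand and so reads GCGCATGC).
NDUFS7, plus strand, chr19:1383657-1383956: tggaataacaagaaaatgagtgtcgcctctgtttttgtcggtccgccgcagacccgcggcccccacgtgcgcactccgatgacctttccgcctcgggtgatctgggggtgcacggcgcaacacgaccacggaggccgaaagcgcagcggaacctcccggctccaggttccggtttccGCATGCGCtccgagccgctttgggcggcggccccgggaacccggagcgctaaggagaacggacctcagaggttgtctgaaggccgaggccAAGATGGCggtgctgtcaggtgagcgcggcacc
NDUFS6, plus strand, chr5:1801157-1801456: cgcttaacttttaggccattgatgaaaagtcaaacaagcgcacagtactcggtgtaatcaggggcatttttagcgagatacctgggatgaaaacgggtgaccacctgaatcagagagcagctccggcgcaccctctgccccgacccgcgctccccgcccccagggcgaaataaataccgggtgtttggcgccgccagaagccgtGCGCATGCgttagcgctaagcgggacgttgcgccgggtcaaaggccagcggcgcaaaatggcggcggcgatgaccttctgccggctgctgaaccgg
In both, the NRF1 word lies before the start, and in NDUFS7 the YY1 word lies just after it.

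Members passed the test in each comparison between clones. With both libraries of each clone as its replicates (n = 2), edgeR called 7 of 45 members (15.6%) for c1 against NT, 4 of 45 (8.89%) for c2 against NT and 6 of 45 (13.3%) for c1 against c2. The shares of all genes called were 20.7%, 15.1% and 20.3%. With doxycycline as a further term the counts were 9, 8 and 8 members, against 27.8%, 21.1% and 26.8% of all genes. Members called there and not without the term were NDUFB9 (lower in c1 than in NT and c2, edgeR adjusted p = 0.0353 and 0.0299), NDUFS7 (lower in c1 than in NT, 0.0460), NDUFA5 (higher in c2 than in NT, 0.0102, and lower in c1 than in c2, 0.0156), and NDUFA10, NDUFS6 and NDUFV1 (each lower in c2 than in NT). Single libraries moved the counts. Without induced or uninduced NT, 2 and 1 members were called for c1 against NT, and 1 and 0 for c2 against NT. Without induced or uninduced c2, c2 against NT had 1 and 0 and c1 against c2 had 1 each. A lone library left in a clone is assumed to vary like the others. Each line stands for its hairpin and its clonal origin at once, and these cannot be told apart.

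NDUFS6, a zinc-binding subunit of the N module, had the largest fold change among the members called. It had 67.5 and 56.7 CPM in induced and uninduced c1, 85.3 and 86.4 CPM in c2, and 106 and 103 CPM in NT. The 3 clones did not overlap. Such a separation in CPM was common, found in 61.2% of all genes between c1 and NT. It was found in 62.6% between c2 and NT and in 60.2% between c1 and c2. It was lower in c1 than in NT (-0.75 ± 0.09, edgeR adjusted p = 0.00176), a call kept under all 14 alternatives, and lower in c1 than in c2 (-0.47 ± 0.09, adjusted p = 0.00985), the second lost without either c2 library. NDUFV1, the flavin-bearing core subunit, had 228 and 205 CPM in induced and uninduced c1, 232 and 228 CPM in c2, and 271 and 269 CPM in NT. It was lower in c1 than in NT (-0.32 ± 0.07, edgeR adjusted p = 0.0143), whereas c2 against NT gave -0.23 ± 0.07 (adjusted p = 0.0540).

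NDUFB2 of the distal arm was higher in c1. It had 91.1 and 88.8 CPM in induced and uninduced c1, 70.9 and 69.3 CPM in c2, and 68.9 and 65.6 CPM in NT. The difference was 0.42 ± 0.07 against NT (edgeR adjusted p = 0.00561) and 0.36 ± 0.07 against c2 (adjusted p = 0.00884). The first was lost without uninduced NT and the second without either c2 library. NDUFS5 was lower in c1, with 135 and 139 CPM in induced and uninduced c1, 157 and 164 CPM in c2, and 160 and 158 CPM in NT. The differences were -0.22 ± 0.06 against NT (edgeR adjusted p = 0.0395) and -0.23 ± 0.06 against c2 (adjusted p = 0.0322). The call against c2 was lost when any library other than uninduced c1 was left out, and with effective length as an offset. NDUFA4 of complex IV was higher in c1 than in NT (0.30 ± 0.06, edgeR adjusted p = 0.0110), at 216 and 213 CPM in induced and uninduced c1 and 171 and 178 CPM in NT. Between c1 and c2, NDUFA11 and NDUFC2 of the proximal arm were also higher in c1, by 0.23 ± 0.06 and 0.21 ± 0.06 (edgeR adjusted p = 0.0417 and 0.0469). Both calls were lost whichever of the 6 libraries was left out, and also without the filter or with effective length as an offset.

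In c2 the called members were MT-ND3, NDUFC2, NDUFC1 and NDUFA12. MT-ND3 was the only MT-ND gene called between any clones by edgeR, with 755 and 704 CPM in induced and uninduced c2, against 927 and 1027 CPM in NT (-0.42 ± 0.07, adjusted p = 0.00900). NDUFC2 had 121 and 129 CPM in induced and uninduced c2, against 157 and 157 CPM in NT (-0.33 ± 0.06, edgeR adjusted p = 0.0120). NDUFA12 of the N module had 45.3 and 46.1 CPM in induced and uninduced c2, against 55.1 and 54.8 CPM in NT (-0.27 ± 0.07, edgeR adjusted p = 0.0484). NDUFC1, a small proximal-arm subunit, was higher than in NT in both CDAN1 shRNA clones, by 0.40 ± 0.12 in c1 and 0.48 ± 0.12 in c2 (edgeR adjusted p = 0.0456 and 0.0300). Both differences share the NT libraries. The c1 against NT calls of NDUFC1 and NDUFS5 were lost whichever of the 6 libraries was left out, and that of NDUFC1 also with DESeq2 or without the filter. Without either NT library, the NDUFC1 call of c2 did not remain, nor did those of NDUFA4, NDUFV1, NDUFC2 and NDUFA12 against NT. The c2 against NT calls of NDUFC2, NDUFC1 and NDUFA12 were also lost without either c2 library. That of NDUFA12 was further lost with RLE scaling, without the filter, with effective length as an offset or with unmatched transcripts kept. Keeping unmatched transcripts also lost the NDUFC1 call of c2. The MT-ND3 call was lost without uninduced NT or uninduced c2.

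**Figure D5:**
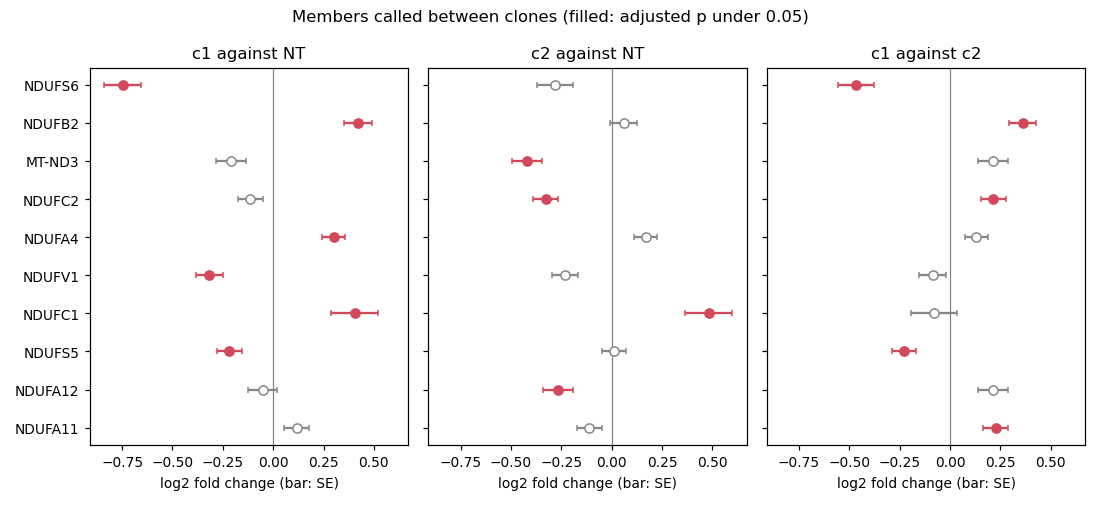
log2 fold change (points) and SE (bars) of 10 members called in at least 1 comparison between clones, for c1 against NT, c2 against NT and c1 against c2; filled points passed an adjusted p under 0.05 by edgeR. NDUFS6 is lowest in c1 (-0.75 against NT, -0.47 against c2), NDUFB2 is higher in c1, and MT-ND3 and NDUFC2 are lower in c2 than in NT.

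For some members the gene-level value rests on transcripts that are not annotated as coding. Their share of a gene's reads was 3.29% in the median over the 38 nuclear members, below 10% in 25 and above 25% in 9. It was 58.8% for NDUFA3, 52.1% for NDUFC1, 51.6% for NDUFA10 and 46.4% for NDUFS7 in the mean of the 6 libraries. For NDUFC1 the coding transcripts had 7.58 and 8.65 CPM in induced and uninduced c1 and 6.98 and 6.87 CPM in c2, against 6.05 and 7.32 CPM in NT. Its other transcripts had 8.75 and 7.84 CPM in c1 and 11.4 and 9.37 CPM in c2, against 6.72 and 4.75 CPM in NT. The coding part was higher in both c1 libraries than in either NT library and overlapped between c2 and NT, and the other part was higher in all 4 CDAN1 shRNA libraries than in NT. The coding transcripts with the most reads in any library were NDUFA13-203 with at most 65.2 reads for NDUFA13 and NDUFA6-202 with at most 51.4 reads for NDUFA6.

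Genes that build complex I or serve the mitochondrial genome were described from lists. Of 17 assembly factors tested, none was called in the doxycycline comparisons, where edgeR gave an unadjusted p under 0.05 for 0 without and 1 with the clone as a block in each of the 4 comparisons. Between clones, 3 (17.6%) were called for c1 against NT, 3 (17.6%) for c2 against NT and 1 (5.88%) for c1 against c2, beside 20.7%, 15.1% and 20.3% of all genes. FOXRED1, which helps assemble the complex, was lower than in NT in both clones (-0.42 ± 0.07 in c1 and -0.36 ± 0.07 in c2, edgeR adjusted p = 0.00664 and 0.0138), as was ECSIT (-0.29 ± 0.08 and -0.38 ± 0.08, adjusted p = 0.0341 and 0.0152). NDUFAF8 was lower in c2 than in NT (-0.68 ± 0.10, edgeR adjusted p = 0.00417) and higher in c1 than in c2 (0.56 ± 0.10, adjusted p = 0.00701). NDUFAF4 was higher in c1 than in NT (0.30 ± 0.09, adjusted p = 0.0459). Of the 4 subunits of complex II, which is wholly nuclear and passes electrons from succinate, SDHA was lower in c1 than in NT (-0.61 ± 0.06, edgeR adjusted p = 0.000536) and than in c2 (-0.59 ± 0.06, adjusted p = 0.000385). SDHB was lower in c1 than in c2 (-0.34 ± 0.07, adjusted p = 0.00898). Without doxycycline as a term, no complex II gene was called for c2 against NT, where edgeR gave an unadjusted p under 0.05 for 2. With the term, SDHD was called there (-0.20 ± 0.05, edgeR adjusted p = 0.0263), beside 21.1% of all genes. SDHD and SDHB were then also called for c1 against NT, both lower in c1 (edgeR adjusted p = 0.0112 and 0.0410), beside 27.8% of all genes.

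Of 27 genes of mitochondrial transcription, replication and RNA processing, 6 (22.2%) were called for c1 against NT, 4 (14.8%) for c2 against NT and 5 (18.5%) for c1 against c2, shares near those of all genes (20.7%, 15.1% and 20.3%). The nuclease gene REXO2 was lower than in NT in c1 (-0.49 ± 0.07, edgeR adjusted p = 0.00284) and in c2 (-0.59 ± 0.07, adjusted p = 0.00143), and the polymerase gene POLG was lower in c1 than in NT (-0.62 ± 0.07, adjusted p = 0.00109). GRSF1, which binds RNA in mitochondrial granules, was higher in c1 than in NT (0.51 ± 0.07, edgeR adjusted p = 0.00225). None of the 27 was called in the doxycycline comparisons by edgeR, where 0, 0, 0 and 1 had an unadjusted p under 0.05 without the block and 4, 5, 1 and 6 with it. Of 7 nuclear regulators of respiratory genes, only GABPA was called without the doxycycline term, for c1 against NT (0.41 ± 0.12, edgeR adjusted p = 0.0466). With the term, PPRC1 was also called, higher in c1 than in NT (0.23 ± 0.06, edgeR adjusted p = 0.0349) and than in c2 (0.25 ± 0.06, adjusted p = 0.0230). The shares of all genes called there were 27.8% and 26.8%. Of the 6 other mitochondrially encoded mRNAs, MT-ATP6 was called without that term, higher in c1 than in c2 (0.39 ± 0.10, edgeR adjusted p = 0.0300). With the term, MT-CO1 and MT-CO2 were also called, both higher in c1 than in NT (0.38 ± 0.10 each, edgeR adjusted p = 0.0275 and 0.0310).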

How the data were processed

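RNA was sequenced in 6 K562 libraries, each a single culture. Salmon 1.5.2 and the build GRCh37 (hg19) are named, per the submitters' processing notes. The deposited files give an estimated count and a TPM per transcript, per the file headers. Trimming, annotation version and strand: not given in the sources used here. Of 167268 transcripts, 151039 (90.3%) matched GENCODE 29 by identifier and were summed per gene. The other 16229 were left out.

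Summed counts were rounded and scaled by TMM. After edgeR's filter for a smallest group of 2 libraries, 14075 genes were tested (R 4.3.3, edgeR 4.0.16, quasi-likelihood, two-sided, Benjamini-Hochberg over all genes, threshold 0.05). DESeq2 1.42.0, RLE scaling, no filter, mitochondrially encoded genes left out of the scaling, effective length as an offset, unmatched transcripts kept, pseudogene reads added and each library left out in turn were alternatives. log2 CPM used a prior count of 2. The scripts were tested on simulated data.

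The states of a clone share its line. Over genes, the departure of each induced library from its state's mean correlated with that of the same clone uninduced (r = 0.68 in c1, 0.74 in c2 and 0.61 in NT over 14075 genes). The clone was therefore also fitted as a block. The members and lists were chosen with earlier results of these data known. Named members are all MT-ND genes, those called in any comparison, the 2 highest and the 2 lowest fold changes where none was called, and the ends of the levels and library ratios. Coordinates and mitochondrial sequence are of GRCh38 with GENCODE 29, and promoters are of RefSeq on GRCh38.p14. Values of 1 nuclear member are not reported here; it is kept in the sums and counts.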

Additional observations from a re-analysis of the deposited data

Results flagged for a closer look

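The induced minus uninduced difference of the log2 ratio of MT-ND to nuclear TPM had opposite signs between clones, at -0.36 in c1 and -0.42 in NT but 0.028 in c2. The difference between the clones was not tested. In 3 MT-ND genes the response of c2 was positive and those of c1 and NT were negative, each beyond counting error. These were MT-ND2 (0.14 in c2, -0.20 in c1 and -0.21 in NT on the log2 CPM scale), MT-ND3 (0.10 in c2, -0.12 in c1 and -0.15 in NT) and MT-ND5 (0.13 in c2, -0.27 in c1 and -0.37 in NT). NDUFA7, which joins the N and Q modules, showed the reverse over all its transcripts, with 0.40 in c1, -0.18 in c2 and 0.14 in NT. Its coding transcript NDUFA7-201 had 98.9 TPM induced against 69.7 TPM uninduced in c1, and 68.9 against 93.0 TPM in c2. In NT it was slightly lower when induced, at 69.2 against 71.3 TPM. NDUFA7-202, which is not annotated as coding, had 52.8 TPM in induced against 35.9 TPM in uninduced NT. These differences were not tested either. Among the 4 controls, uninduced c1 lay apart from the others for NDUFB2, with 88.8 CPM against 65.6 to 69.3 CPM. It was 1 of 48 measures examined this way, of which chance flags about 1 in 20.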

How the results depend on the processing

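No member was called by edgeR under any unblocked alternative of the 4 comparisons that involve doxycycline. The calls over all genes depended on the clone block. For the knockdown, 0 genes became 6 with the clone as a replicate block, 19 with doxycycline as a further term, 22 with DESeq2 and 113 with DESeq2 and the block. For induced against uninduced CDAN1 shRNA clones the counts were 141 with the block, 2 with DESeq2 and 69 with both. For the difference of responses they were 19, 5 and 8. Over all 3 clones they were 18, 6 and 145, and DESeq2 with the block called 1 member. Leaving out each library in turn, the blocked fits called 0 to 166 genes for the knockdown, and 3 to 166 genes and 0 to 4 members over all 3 clones.

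Between clones, effective length as an offset gave 4 members and 1811 genes for c1 against NT, 1380 genes for c2 against NT, and 3 members and 1890 genes for c1 against c2. Keeping unmatched transcripts gave 1928, 1218 and 1783 genes in these comparisons and 2 members for c2 against NT, where doxycycline as a term gave 8. Leaving out each library gave 1 to 7 members and 1034 to 2905 genes for c1 against NT, 0 to 8 and 759 to 2723 for c2 against NT, and 1 to 6 and 1156 to 2503 for c1 against c2. The cause was not tested, other than fewer libraries in each fit.

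MT-ND3 over all 3 clones lay between -0.19 and 0.071 with a library left out, positive without uninduced NT, and was not called. The mean nuclear sum was 5637 TPM over coding transcripts only. The mean change of the log2 ratio kept its sign under all alternatives run. With 1 library per clone and state, the response of a single clone has no replicate.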
